A study of Mus musculus with 686 samples.

Results

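The spleens of mice whose spaceflight ended on orbit are described here, with the spleens of their ground controls. The samples were chosen by their labels: every spleen library of the termination arm (TERM), in which mice were euthanised on the International Space Station or at the matched time on Earth. They came to 26 of the 686 libraries of the series. The study sequenced the small RNA of many mouse tissues after spaceflight and asked how it, and miRNA above all, differed from that of mice kept on the ground. All mice were female BALB/cAnNTac, an inbred albino strain, and were 3 or 8 months old. Flight mice (FL, n = 9, 4 of them 3 months and 5 of them 8 months old) lived on the station and were euthanised there 22 to 24 days after launch. Habitat ground control mice (HGC, n = 9, 5 and 4) lived on Earth in flight hardware at matched temperature, humidity, CO2 and density, and were euthanised at the matched time. Vivarium ground control mice (VGC, n = 8, 4 and 4) lived in standard cages on Earth and were euthanised over the same interval. Every TERM mouse received the same injected anaesthesia with ketamine, xylazine and acepromazine, followed by cardiac puncture and thoracotomy, and each TERM spleen was placed in RNAlater at dissection. Flight spleens were dissected on orbit and control spleens on Earth, so that flight and the site of handling cannot be told apart. Mold on the food bars of FL and HGC mice was a further difference from VGC.

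The spleen filters blood and removes old red cells, and its white pulp holds B and T lymphocytes that respond to antigens carried in the blood. miRNAs are short RNAs that guide Argonaute proteins to messenger RNAs through a seed at bases 2 to 8, and many are made in 1 cell lineage. tRNA fragments, fragments of the small nuclear RNAs (snRNA) of the spliceosome, ribosomal RNA (rRNA), small nucleolar RNA (snoRNA) that guide the modification of other RNAs, piRNA and fragments of long non-coding RNA (lncRNA) are read in the same libraries. In whole spleen, fewer cells of a type and less RNA per cell cannot be told apart.

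The miRNAs on which the results turn are shown first, as RefSeq gives them on GRCm38.p6, 5′ to 3′ with the seed in capitals. miR-223-3p of granulocytes and macrophages and miR-142a-3p of all blood cells checked the tissue label. miR-451a of red cells was the most abundant miRNA in the libraries with a spleen profile. The let-7 pair was among the most abundant and shares the seed GAGGUAG. miR-1187 was 1 of the 2 miRNAs called in the flight comparisons below, and its sequence holds a run of UG repeats. miR-1187 lies at chr5:82798964-82798986 on the minus strand and miR-223-3p at chrX:96242884-96242905 on the plus strand.
miR-223-3p: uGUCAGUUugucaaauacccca
miR-142a-3p: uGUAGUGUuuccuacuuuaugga
miR-451a: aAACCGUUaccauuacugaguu
let-7a-5p: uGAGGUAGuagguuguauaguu
let-7f-5p: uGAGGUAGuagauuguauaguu
miR-1187: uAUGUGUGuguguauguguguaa

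The libraries held 28.9 to 86.5 M counts (M, 1000000) over the 7 RNA classes (median 54.9 M), of which 2.33 to 9.56 M were on miRNAs, and 526 to 698 miRNAs had at least 5 counts. The label was checked by correlating each library with the median miRNA profile of each of 13 tissues of the series, over 730 miRNAs that vary between tissues. Each miRNA was first centred on its mean over the tissue profiles. In 21 libraries the spleen profile was the nearest, at a correlation of 0.80 to 0.96. The library labelled FL 11 was nearest lung (0.96, against 0.10 with spleen), FL 12 nearest subcutaneous fat (0.82, against −0.49), HGC 13 nearest kidney (0.92, against −0.09), VGC 4 nearest liver (0.96, against 0.09) and VGC 13 nearest lung (0.90, against −0.10). All 5 were in sequencing pools ISS2-5, ISS19-22 or ISS39-41, which hold tissue mix-ups, and 4 further libraries from those 11 pools (FL 13, HGC 1, HGC 4 and VGC 14) had a spleen profile. The number of features called in each class is therefore given for the 26 libraries as labelled, for the 21 with a spleen profile (FL 7, HGC 8, VGC 6; a choice made after seeing the data) and for the 17 outside the 11 pools (FL 6, HGC 6, VGC 5). Single features and groups are given for the sets named beside them.

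The lymphocyte and myeloid marker miRNAs separated the same 5 libraries, here as counts per 1000000 miRNA counts (CPM) with no further scaling. miR-150-5p, which marks mature lymphocytes and represses the transcription factor Myb, stood between 9315 (FL 14) and 82908 (HGC 5) in the 21 libraries. It was at 5515 in FL 11, 7599 in FL 12, 872 in HGC 13, 608 in VGC 4 and 4558 in VGC 13, below every one of the 21. miR-223-3p was at 1863 (FL 1) to 11003 (FL 16) in the 21 libraries. The same miRNA was at 835, 984, 124, 417 and 871 in FL 11, FL 12, HGC 13, VGC 4 and VGC 13. miR-142a-3p was at least 5269 in the 21 libraries, while the 5 others ran from 149 to 906. Markers of other organs showed the reverse. The liver miRNA miR-122-5p reached 349569 in VGC 4, the muscle miRNAs miR-206-3p and miR-1a-3p reached 8608 and 9134 in FL 12, and miR-192-5p of kidney and gut reached 26417 in HGC 13 and 70278 in VGC 4. The red cell miRNAs, miR-451a among them, did not separate all 5. Their summed CPM, after the TMM scaling explained below, was at least 87365 in every VGC library of the 26. The lowest sums among the 21 were 70258 in FL and 62052 in HGC. HGC 4, which is among the 21 with a correlation of 0.827 with spleen, also stood apart in the miRNAs high in HGC 13. Its miR-192-5p was at 4558, where the other 20 ran from 348 (VGC 14) to 934 (FL 13), and its miR-196b-5p was at 489, where the other 20 ran from 34.0 (VGC 3) to 134 (HGC 1). Without HGC 4 the calls of the 21 libraries against HGC were 1 for miRNA, 48 for tRNA, 74 for snRNA, 19 for piRNA and 283 for lncRNA, beside 2, 51, 57, 20 and 287 with it, and those of lncRNA against VGC went from 6 to 0.

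**Figure D1:**
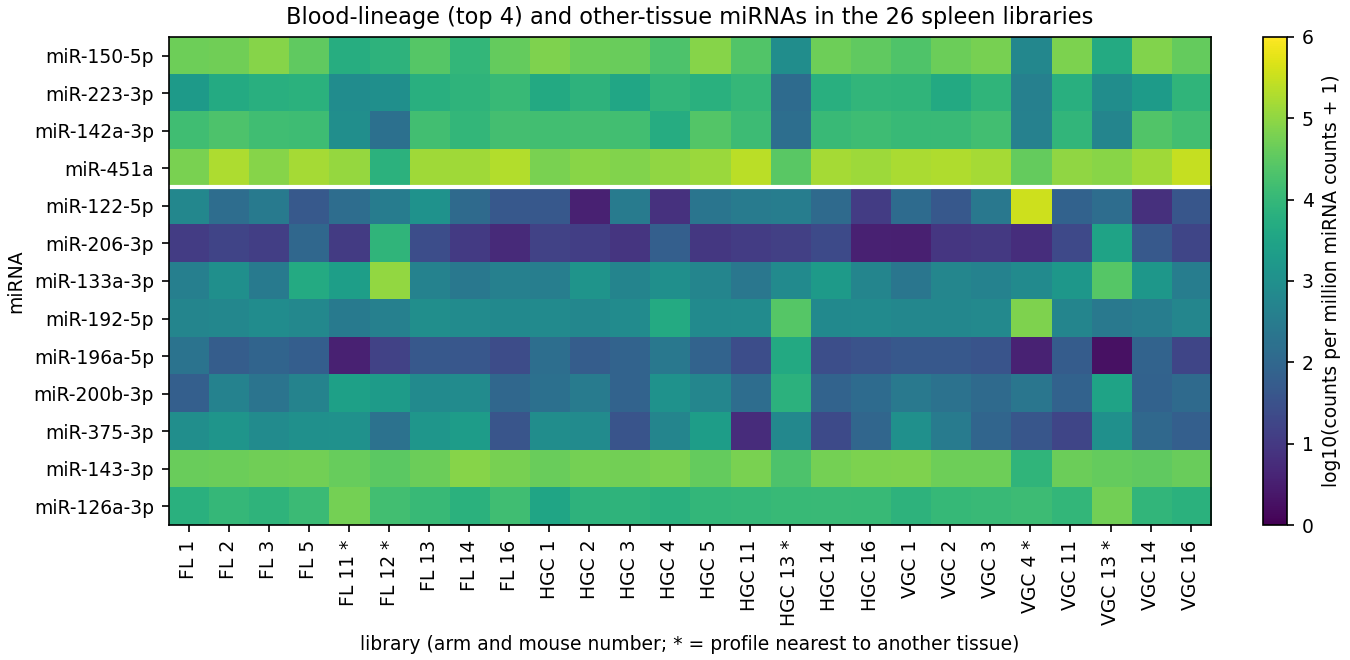
Level of 13 marker miRNAs (vertical axis) in each of the 26 libraries (horizontal axis, arm and mouse number), as the log10 of CPM plus 1. The 5 libraries marked with an asterisk have the lowest miR-150-5p, and VGC 4 has miR-122-5p at 349569 CPM.

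Among the 21 libraries snoRNA was the largest class by mean share in each arm. snoRNA held 31.0% ± 4.95 (SD, n = 7) in FL, 35.7% ± 5.36 (n = 8) in HGC and 32.7% ± 5.10 in VGC. In an exact two-sided permutation test, p was 0.110 against HGC and 0.550 against VGC. miRNA held 7.82% ± 4.09 in FL, 8.07% ± 2.12 in HGC and 8.87% ± 2.32 (n = 6) in VGC. tRNA fragments had the smallest p of the 14 comparisons, with 10.8% ± 4.02 in FL, 6.75% ± 1.08 in HGC and 7.09% ± 2.55 in VGC. The exact permutation p for tRNA was 0.00357 against HGC and 0.0653 against VGC. Adjusted over the 14 comparisons, the permutation p came to 0.05004, just above the threshold of 0.05, and to 0.457. With all 26 libraries the tRNA share was 20.7% ± 20.7 in FL, 9.17% ± 7.34 in HGC and 13.2% ± 16.6 in VGC (exact permutation p = 0.149 and 0.401), since the 5 libraries of another profile ran from 8.92 to 66.8%. With the 11 pools left out, FL was at 10.5% ± 4.29 and HGC at 6.58% ± 1.21 (exact permutation p = 0.0195, adjusted 0.136). The smallest p of that set belonged to snoRNA, at 31.4% ± 5.29 in FL and 38.0% ± 2.60 in HGC (exact permutation p = 0.00866, adjusted 0.121). No class share was called in any of the 3 sets of libraries.

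**Figure D2:**
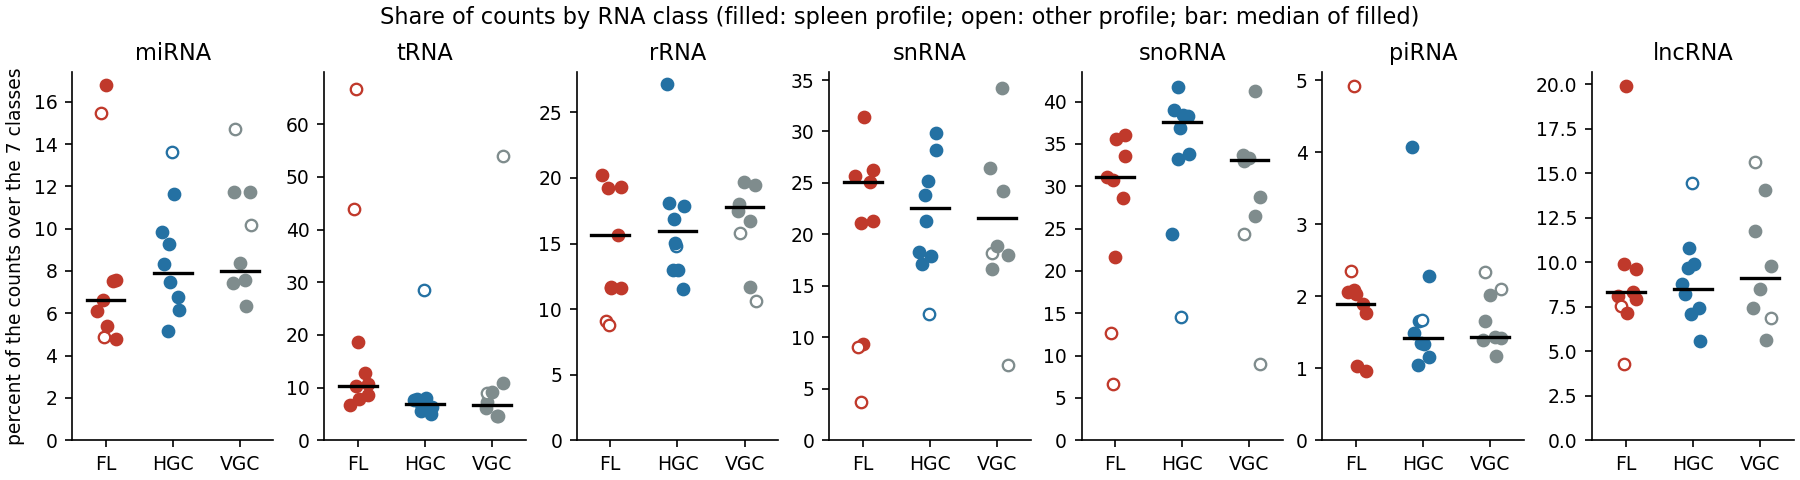
Percent of the counts over the 7 RNA classes that fell on each class (vertical axes from 0), by arm and library. Filled points are the 21 libraries with a spleen profile, open points the 5 of another profile and bars the median of the filled points. The tRNA share of the filled FL libraries reaches 18.7%, above every filled control, while open points of all 3 arms lie higher in that class.

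Among the miRNAs of the 21 libraries, the flight spleens differed from both controls in 2, miR-466i-5p and miR-1187, and the abundant blood-lineage miRNAs differed by less than the spread between mice. Of 558 miRNAs tested in the 26 libraries with edgeR's quasi-likelihood test and Benjamini-Hochberg adjustment, 0 (0%) were called between FL and HGC at an adjusted p under 0.05. At an unadjusted p under 0.05 there were 38, and DESeq2 called 4. Between FL and VGC 0 (0%) were called, with 34 at an unadjusted p under 0.05 and 4 by DESeq2. HGC and VGC also had 0 called, with 43 at an unadjusted p under 0.05. In the 21 libraries 2 of 562 (0.356%) were called in each flight comparison, both higher in FL and the same 2 miRNAs, which share their FL libraries. With counts over the 7 classes as the library size, 1 was called against HGC and 0 against VGC there, and with no filter 1 in each. Outside the 11 pools 1 of 559 (0.179%) was called against HGC and 0 against VGC.

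miR-466i-5p belongs to a large family of rodent miRNAs with many copies in the genome, so that its reads can match several members. As CPM after TMM scaling, which evens out the composition of the libraries and is the scale of the miRNA levels from here on, it was at 224, 328 and 841 (lowest, median and highest) in the 7 FL libraries. It was at 37.1, 70.6 and 120 in HGC and at 39.8, 86.3 and 204 in VGC. Every FL library stood above every control library among the 21, with FL 1 the highest. The log2 fold change was 2.44 (SE 0.36, adjusted p = 0.000492) against HGC and 2.11 (SE 0.40, adjusted p = 0.0133) against VGC. With the 26 libraries the arms overlapped, since FL 11 and FL 12 were among the lowest. The log2 fold changes there were 2.08 (adjusted p = 0.0974) and 1.93 (adjusted p = 0.0892). Over the 17 libraries they were 2.46 (adjusted p = 0.00476) and 2.09 (adjusted p = 0.0601). With RNA plate as a covariate in the 21 libraries, where FL and HGC share only plates 1, 3 and 4, they were 2.12 (adjusted p = 0.521) and 1.99 (adjusted p = 0.127).

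miR-1187, whose letters are shown above, was much less abundant than miR-466i-5p. It was at 5.96, 6.61 and 10.1 CPM in FL, at 0.748, 3.02 and 5.14 in HGC and at 1.62, 2.39 and 3.74 in VGC, without overlap of FL and either control among the 21. Its log2 fold change was 1.33 (SE 0.28, adjusted p = 0.0241) against HGC and 1.55 (SE 0.31, adjusted p = 0.0133) against VGC. It was not called in the 26 libraries (1.08 and 1.41), outside the 11 pools (1.27 and 1.42, adjusted p = 0.189 and 0.186) or with plate as a covariate (1.67 and 1.47). Against HGC it lost its call without any one of FL 1, FL 14, FL 16, HGC 2, HGC 4, HGC 5 or HGC 16 (1.23 to 1.34), which left 1 miRNA called, while miR-466i-5p kept its call against HGC without each of the 21 in turn. Against VGC both lost theirs without VGC 3, VGC 14 or VGC 16, which left 0 called, and miR-1187 also without VGC 11.

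**Figure D3:**
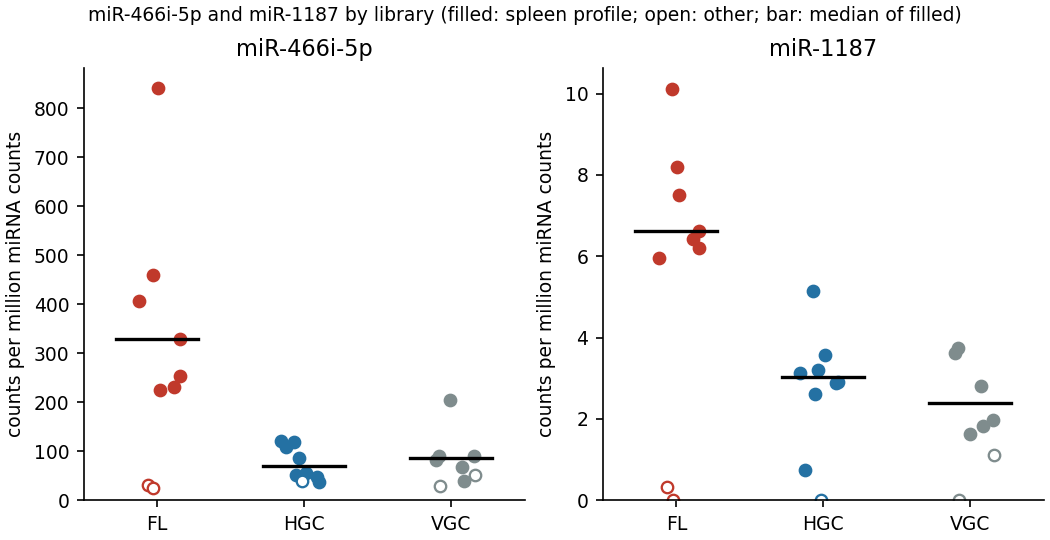
Levels of miR-466i-5p and miR-1187 in each library, as TMM-scaled CPM on linear axes from 0. Filled points are libraries with a spleen profile, open points those of another profile and bars the median of the filled points. The filled FL points, from 224 for miR-466i-5p and from 5.96 for miR-1187, lie above every control point.

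The UG repeats of miR-1187 were then looked for in other miRNAs, with letters chosen after its values were seen. Of the 436 tested miRNAs with a mature sequence in RefSeq, 5 hold UGUGUGUG, on the strand of the miRNA itself. miR-466i-5p is not among the 436 and was not searched. The 4 holders other than miR-1187 are shown with their seeds in capitals, and none of these 4 was called in the 21 libraries. miR-466k had a log2 fold change of 0.12 (adjusted p = 0.993) against HGC and 0.54 against VGC, miR-32-3p 0.36 and −0.07, and miR-672-5p 0.62 and 0.35 where its run of UG is at the 3′ end. miR-574-5p was at 64.2, 104 and 326 CPM in FL and at 48.1, 87.0 and 179 in HGC, with log2 fold changes of 0.42 and −0.13.
miR-466k: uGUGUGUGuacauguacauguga
miR-574-5p: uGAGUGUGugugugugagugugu
miR-32-3p: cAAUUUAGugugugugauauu
miR-672-5p: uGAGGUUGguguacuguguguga

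The miRNAs with the next smallest p in the 21 libraries were not called. miR-7b-5p, expressed in neurons and endocrine cells, had a log2 fold change of 2.07 (adjusted p = 0.283) against HGC and 2.05 against VGC, with FL at 1.24, 4.55 and 45.6 CPM. Without FL 1, the highest, these were 0.75 and 0.73. Against HGC, miR-449a-5p of ciliated epithelia was at 0.92 (adjusted p = 0.358) and miR-205-5p of squamous epithelia at 3.45 (adjusted p = 0.358), the latter at −0.20 without FL 13. Against VGC, miR-3470b was at 2.16 (adjusted p = 0.359) and miR-297b-5p at −0.78 (adjusted p = 0.359). Among the 26 libraries the smallest p after miR-466i-5p belonged to miRNAs of other organs. Against HGC these were miR-196b-5p (log2 fold change −4.35, adjusted p = 0.0974), miR-196a-5p (−3.72, adjusted p = 0.294), miR-206-3p (5.86, adjusted p = 0.294) and miR-133b-3p (3.68, adjusted p = 0.294). Over the 21 libraries they stood at −0.59, −0.18, 0.52 and 0.18. Against VGC they were miR-122-5p (−8.38, adjusted p = 0.0892), miR-192-3p (−5.33), miR-122-3p (−7.28) and miR-192-5p (−5.11), all with VGC 4 far above the rest. Without the 5 libraries of another profile these turned to 1.99, 0.20, 2.71 and 0.35.

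The lymphocyte miRNAs, taken as a list of 8, had no member called in any of the 3 sets of libraries, where at most 2 of all miRNAs tested were. With so few calls over all miRNAs, the lack of one in this list or in those below says little about the list. Their median log2 fold change in the 21 libraries was 0.18 against HGC and 0.18 against VGC, beside 0.02 and 0.05 over all miRNAs tested. miR-150-5p was at 8660, 32361 and 67901 CPM in FL, at 19370, 39886 and 70414 in HGC and at 20078, 48459 and 71806 in VGC. The arms overlapped widely, with a log2 fold change of −0.12 (SE 0.36, adjusted p = 0.993) against HGC and −0.33 (SE 0.39) against VGC. miR-181a-5p, which tunes antigen receptor signalling, was at 0.26 and 0.50. miR-146a-5p, a brake on NF-kB signalling, was at 0.20 and −0.26, and miR-342-3p at 0.20 and 0.09. miR-155-5p, induced on lymphocyte activation, was at 0.16 and 0.28.

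Of the 5 myeloid miRNAs none was called, and the median log2 fold change was −0.12 against HGC and −0.03 against VGC. miR-223-3p was at 2089, 5244 and 9476 CPM in FL, at 3571, 6028 and 8897 in HGC and at 1904, 6344 and 8793 in VGC, with log2 fold changes of −0.12 (SE 0.29) and −0.03. miR-21a-5p, abundant in activated macrophages and many other cells, was at −0.02 and −0.10. miR-142a-3p was at 8541, 12810 and 17875 CPM in FL and at 5165, 13454 and 21046 in HGC (0.09, and 0.02 against VGC). The arms overlapped for both markers.

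The 6 red cell miRNAs had medians of 0.01 and −0.27 and no member called. miR-451a, which is matured by Argonaute 2 without Dicer and is the main miRNA of red cells, was at 68896, 130949 and 170901 CPM in FL. It was at 59865, 101715 and 196436 in HGC and at 94857, 144941 and 296172 in VGC, with log2 fold changes of 0.24 and −0.39. Its neighbour in the same cluster, miR-144-3p, was at 0.31 and −0.45. miR-451a was the most abundant miRNA of the 21 libraries, with a median of 14.1% of miRNA counts. It was followed by miR-26a-5p (5.85%), miR-143-3p of smooth muscle and stroma (5.12%), let-7a-5p (4.71%), miR-150-5p (4.45%), let-7f-5p (4.25%), miR-191-5p (3.66%), let-7g-5p (3.2%) and let-7c-5p (2.97%). miR-122-5p was in the first 10 over the 26 libraries through VGC 4, and its median over the 21 was 0.0118%.

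No member of the other miRNA lists was called either, in any of the 3 sets. The median log2 fold change against HGC and VGC in the 21 libraries was 0.11 and 0.14 for 14 miRNAs of the miR-17-92 clusters that promote lymphocyte growth. It was 0.12 and 0.12 for 9 members of the let-7 family, 0.01 and −0.03 for 10 stromal miRNAs, and 0.28 and 0.09 for the 2 endothelial arms of miR-126a. For the 6 of 7 tested miRNAs induced by NF-kB or activation it was −0.07 and 0.10, and for the 6 of 7 linked to p53 or hypoxia 0.18 and 0.10. Among single members, miR-17-5p was at −0.21 and 0.22, let-7a-5p at 0.16 and 0.07, miR-143-3p at 0.03 and 0.19, miR-126a-3p at 0.28 and 0.10 and the p53 target miR-34a-5p at 0.24 and −0.06. Within the NF-kB list miR-132-3p was spread widely among the mice of each arm, at 1.5, 4.30 and 268 CPM in FL, 3.02, 101 and 216 in HGC and 0.535, 2.11 and 39.1 in VGC. Its log2 fold change was −1.02 (SE 1.12) against HGC and 2.30 against VGC, neither called.

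The 16 tested miRNAs of other organs had medians of 0.50 against HGC and 0.98 against VGC in the 21 libraries, with none called. Their summed level was at 973, 3869 and 8367 CPM in FL, 1046, 2545 and 5647 in HGC and 1097, 2041 and 2698 in VGC. miR-375-3p, which marks pancreatic islets and other endocrine cells, was at 31.2, 1056 and 1971 CPM in FL. It was at 3.97, 303 and 1890 in HGC and at 16.0, 88.0 and 939 in VGC, with log2 fold changes of 1.04 (SE 1.00) and 2.06. The epithelial miR-200b-3p was at 0.28 and 1.5 and miR-429-3p at −0.04 and 1.23. The part of tissue next to the spleen in these values was not tested.

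The rule of the study for a deregulated miRNA asks for an absolute log2 ratio of geometric medians over 1 and an absolute Cohen's d over 0.5, with no p-value. It was applied to log2 CPM over all 7 classes plus a pseudocount of 1, choices made here rather than by the study. So applied, 5 of 961 miRNAs (0.52%) passed between FL and HGC. Per miRNA counts in place of all counts, 10 passed against HGC and 21 against VGC, and at a pseudocount of 10, 0 and 1. miR-466i-5p (1.54) and miR-375-3p (1.04) were higher in FL, and miR-132-3p (−2.81), miR-139-5p (−1.02) and miR-187-3p (−1.01) lower. Between FL and VGC 4 (0.416%) passed, all higher in FL: miR-375-3p (3.43), miR-466i-5p (1.67), and the pancreatic acinar miRNAs miR-217-5p (1.63) and miR-216a-5p (1.08). Among the 21 libraries 6 of 868 (0.691%) passed against HGC and 13 (1.5%) against VGC. Against HGC 5 were higher and 1 lower, with miR-375-3p at 2.33 and miR-466i-5p at 1.65. Against VGC 11 were higher, led by miR-375-3p (3.43), miR-802-5p (2.83), miR-216a-5p (2.02) and miR-217-5p (1.91), and 2 were lower, miR-328-3p (−1.43) and miR-150-5p (−1.14). With the 11 pools left out, 5 of 831 (0.602%) and 6 (0.722%) passed. These ratios carry no replicate test, and miR-375-3p, miR-132-3p and miR-150-5p were not called by edgeR in any of the 3 sets.

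No difference of the flight contrast between ages was called for any of 614 miRNAs (0%) in edgeR's interaction test with Benjamini-Hochberg adjustment, with 26 at an unadjusted p under 0.05 and 0 called by DESeq2. miR-466i-5p in the 21 libraries was higher in FL than in HGC by a log2 fold change of 2.89 (SE 0.44, edgeR adjusted p = 0.00103) at 3 months and 1.54 (SE 0.52, adjusted p = 0.307) at 8 months. The difference of these changes was −1.36 (SE 0.66, edgeR adjusted p = 0.517). The spleens of mice returned alive to Earth, 21 libraries with their own FL, HGC and VGC arms of the same strain and sex, gave a second setting for the contrast. Their flight mice stayed longer in orbit, went through re-entry and were dissected on Earth days after splashdown, with another anaesthesia than the TERM mice and, per the labels, with tissues frozen after dissection. Of 613 miRNAs, 6 (0.979%) were called as different in their FL to HGC change between TERM spleens and returned spleens. Without the libraries of another profile 1 of 593 (0.169%) was called, which was miR-466i-5p, and without the 11 pools 8 of 579 (1.38%), of which miR-466i-5p (2.95, SE 0.51, edgeR adjusted p = 0.00101) and the red cell arm miR-486a-3p (1.61, SE 0.35, edgeR adjusted p = 0.0197) were among the 6. The change of miR-466i-5p without the libraries of another profile was 2.36 in TERM and −0.36 in returned spleens, a difference of 2.73 (SE 0.49, edgeR adjusted p = 0.0011).

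In the returned spleens with a spleen profile, the levels of miR-466i-5p overlapped between the arms. As CPM with no further scaling, it was at 36.8, 57.8 and 65.6 in FL (n = 6), at 31.0, 69.4 and 92.0 in HGC (n = 5) and at 40.3, 78.5 and 136 in VGC (n = 8). On the same scale the TERM spleens were at 260, 363 and 750 in FL, 43.7, 73.8 and 144 in HGC and 47.5, 88.1 and 222 in VGC. Flight length, re-entry, time since flight, site of handling, anaesthesia and the way the tissue was preserved cannot be told apart in this difference.

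In the 21 libraries flight spleens differed from both controls in which tRNA genes the tRNA fragments matched: copies of Cys-GCA, Ile-TAT and the initiator iMet-CAT were higher, and copies of Arg-CCT, Gln-TTG and Pro-TGG were lower. In the 26 libraries 38 of 381 tRNA genes (9.97%) were called between FL and HGC by edgeR, 23 higher (6.04%) and 15 lower (3.94%) in FL. Against VGC 12 (3.15%) were called, all lower. In the 21 libraries 51 of 383 (13.3%; 27 higher, 24 lower) were called against HGC and 47 (12.3%; 20 higher, 27 lower) against VGC. Outside the 11 pools 34 of 380 (8.95%) and 92 (24.2%) were called. tRNA genes of 1 isoacceptor, named by amino acid and anticodon, are near-identical copies that share reads, so that copies are not independent and single copies are uncertain. With plate as a covariate in the 21 libraries, 2 were called against HGC and 29 against VGC. Leaving out FL 16 moved the count against VGC to 85. These values are relative to all tRNA counts of a library. Per count over the 7 classes the median of all tRNA genes moved from 0.12 to 0.43 against HGC and from 0.16 to 0.35 against VGC, with 50 called higher and 0 lower against HGC and 28 higher and 2 lower against VGC.

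The initiator tRNA iMet-CAT, which starts every protein chain, had 8 of its 9 tested genes called higher in both comparisons of the 21 libraries, with log2 fold changes of 0.94 to 0.99. It took 3.26, 3.96 and 4.32% of tRNA counts in FL, 2.21, 2.64 and 2.98% in HGC and 1.88, 2.72 and 3.47% in VGC. FL did not overlap HGC, while VGC 1 and VGC 14 reached into its range. With all 26 libraries the same isoacceptor had 8 called against HGC and 0 against VGC. iMet-CAT-3-1 there was at 2903, 4860 and 14688 TMM-scaled CPM of tRNA counts in FL and at 1387, 2787 and 3183 in HGC, a log2 fold change of 1.32 (adjusted p = 0.00559), and of 0.99 (SE 0.22, adjusted p = 0.00258) in the 21 libraries. iMet-CAT-1-1 and iMet-CAT-1-2 had identical values in every library. With plate as a covariate iMet-CAT-3-1 was at 0.70 (adjusted p = 0.304) and 0 of the 9 genes were called. Per count over the 7 classes 8 were called in both comparisons.

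Of 53 tested Cys-GCA genes, which carry cysteine, 8 were called higher in each comparison of the 21 libraries, where 7.05% and 5.22% of all tRNA genes were, at log2 fold changes of 1.22 to 1.63 against HGC and 1.20 to 1.77 against VGC. Together the Cys-GCA genes took 0.965, 1.61 and 2.79% of tRNA counts in FL, 0.589, 0.743 and 1.08% in HGC and 0.544, 0.661 and 1.07% in VGC. FL 1 and FL 2 lay below the highest library of each control, and the other 5 stood above both. Cys-GCA-2-1 was higher in FL by 1.63 (SE 0.27, adjusted p = 9.42e-05) against HGC and by 1.77 (SE 0.30, adjusted p = 0.000162) against VGC. Among the 26 libraries it was at 1.69 (adjusted p = 0.0392) and 0.81 (adjusted p = 0.344). Over the 17 libraries 8 of the 53 were called higher against HGC and 45 against VGC, beside 5.26% and 16.8% of all tRNA genes.

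Ile-TAT, a minor isoleucine tRNA with few genes, had 3 of 4 called higher in both comparisons. Ile-TAT-2-1 was at 32.3, 61.3 and 79.5 CPM of tRNA counts in FL, 17.3, 19.8 and 32.9 in HGC and 19.7 to 32.1 in VGC. The lowest FL library fell just under the highest HGC library, and the other 6 stood above both controls. Its log2 fold change was 1.49 (SE 0.20, adjusted p = 1.41e-05) against HGC and 1.39 (SE 0.22, adjusted p = 0.000162) against VGC, and Ile-TAT-2-2 was at 1.52 and 1.46. With plate as a covariate Ile-TAT-2-1 was at 1.48 (adjusted p = 0.00957) and 1.56 (adjusted p = 0.000277), and it was not called in the 26 libraries (1.02, adjusted p = 0.0832, and 1.12, adjusted p = 0.109). Of 7 Val-AAC genes 4 were called higher against HGC (0.73 to 1.17) and 0 against VGC.

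The genes called lower in FL, 6.27% of all tRNA genes against HGC and 7.05% against VGC, were spread over several isoacceptors. Arg-CCT had 4 and 5 of its 5 genes called, and took 0.0287, 0.0361 and 0.0709% of tRNA counts in FL, 0.0768, 0.0986 and 0.178% in HGC and 0.0824, 0.0895 and 0.259% in VGC. Its highest FL library lay below the lowest control library. Arg-CCT-3-1 was at 55.2, 62.3 and 105 CPM of tRNA counts in FL and at 133, 163 and 213 in HGC, a log2 fold change of −1.07 (SE 0.25, adjusted p = 0.00307). Gln-TTG had 4 of 5 called in both comparisons and took a median of 0.0465% in FL, 0.0786% in HGC and 0.10% in VGC. Pro-TGG had 4 of 6 called at −0.56 and −0.57. The elongator Met-CAT, which inserts methionine inside proteins, had 2 and 4 of 8 called in the direction opposite to the initiator.

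Among single genes, Lys-CTT-13-1 was at 18.9, 26.2 and 42.9 CPM of tRNA counts in FL, 31.3, 79.2 and 86.7 in HGC and 46.8, 87.0 and 128 in VGC. The log2 fold change of this gene was −1.1 (SE 0.24, adjusted p = 0.00258) against HGC and −1.35 (SE 0.26, adjusted p = 0.000486) against VGC, and was called in the 26 libraries too (−1.06, adjusted p = 0.0386, and −1.22, adjusted p = 0.0293). Met-CAT-5-1 was at 12.1, 13.0 and 18.1 in FL and 25.2, 32.8 and 48.7 in VGC, with no overlap (−1.24, adjusted p = 0.000227). Met-CAT-6-1 was at 10.8, 13.8 and 18.8 in FL and 27.6, 39.8 and 48.3 in VGC (−1.32, adjusted p = 0.000227). Thr-TGT-2-1 was at −0.81 (adjusted p = 0.00346) against HGC, with FL at 61.9, 79.6 and 96.2 and HGC at 86.5, 153 and 175. Against VGC in the 26 libraries Ser-GGA-1-1 was at −1.47 (adjusted p = 0.0154), Gln-CTG-5-1 at −0.90 (adjusted p = 0.0154) and Met-CAT-5-1 at −1.22 (adjusted p = 0.0154). Against HGC in the 26 libraries Leu-TAA-2-1 was at −0.99 (adjusted p = 0.016) and Gln-TTG-1-1 at −0.66 (adjusted p = 0.0386). Per count over the 7 classes only Met-CAT-6-1 (−1.04, adjusted p = 0.035) and Lys-CTT-13-1 (−1.06, adjusted p = 0.0248) remained called lower, both against VGC, and the tRNA genes named as lower in the 21 libraries kept their sign.

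**Figure D4:**
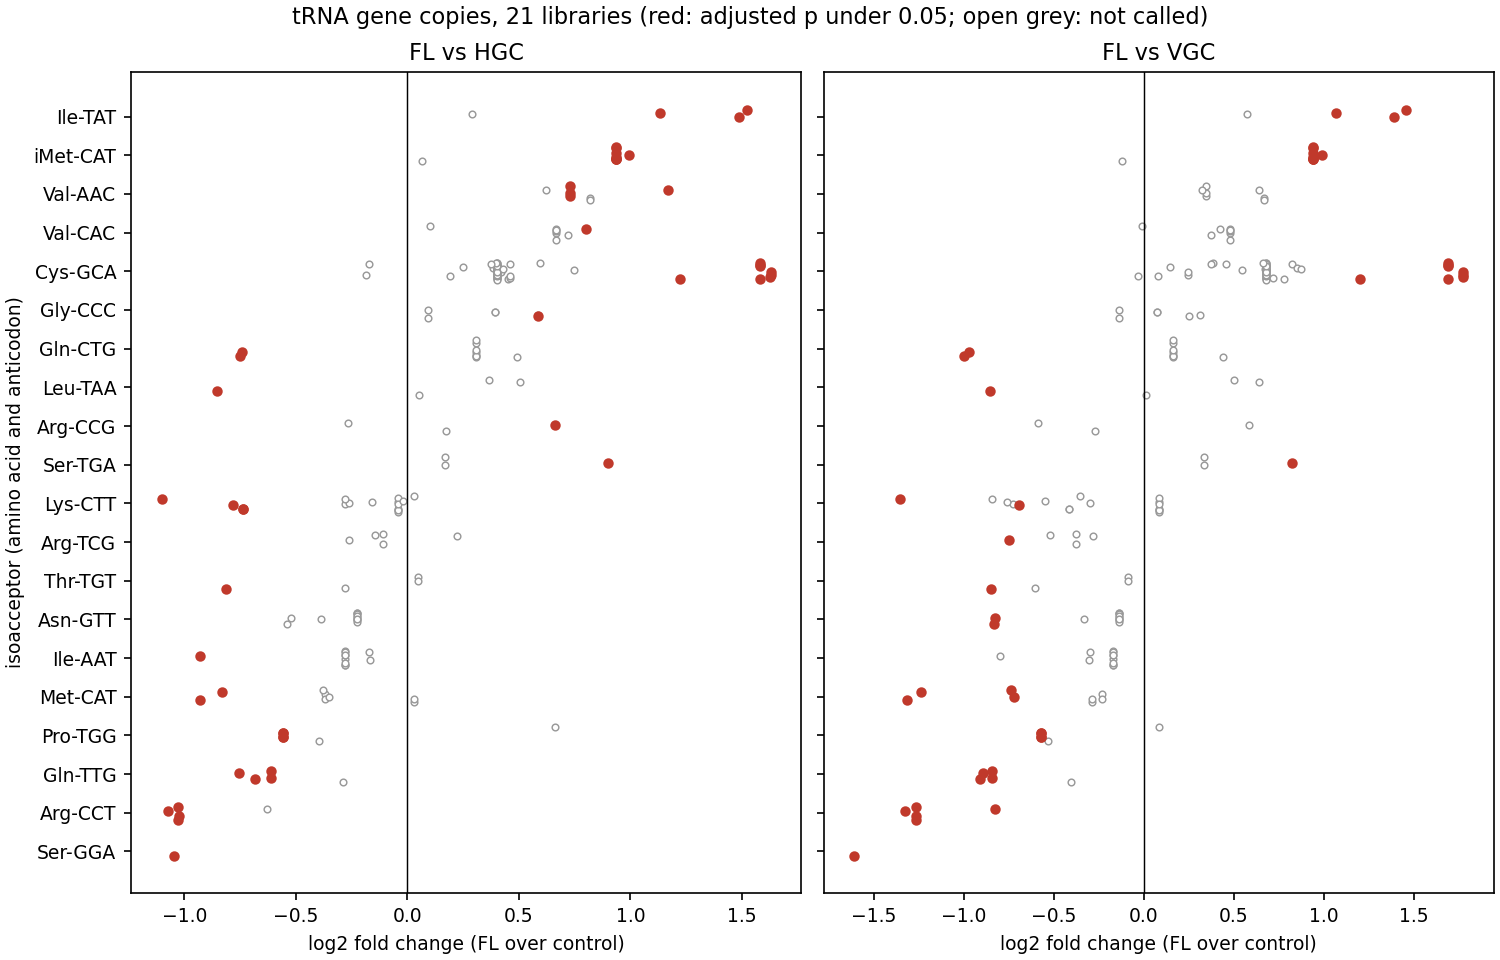
Log2 fold change of FL over HGC (left) and FL over VGC (right) for the tested tRNA genes of 20 isoacceptors in the 21 libraries with a spleen profile, 1 point per gene. Red points have an adjusted p under 0.05 by edgeR and open grey points do not. Cys-GCA and Ile-TAT hold the red points with the highest changes, up to 1.63 against HGC and 1.77 against VGC. A Lys-CTT gene has the lowest red point against HGC (−1.1) and a Ser-GGA gene against VGC (−1.61).

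Among snRNAs, most features tested and most features called were U6-like, that is U6, the RNA that joins U2 in the catalytic core of the spliceosome and is made by RNA polymerase III, and copies of U6 scattered through the genome. A feature was taken as U6-like where it shared at least 20% of its words of 12 letters with U6 and with no other snRNA more. In the 21 libraries 431 of 686 tested (62.8%) were U6-like. No feature of U1 (52 tested), U2 (28) or U5 (11) was called in the 26, the 21 or the 17 libraries. In the 26 libraries 0 of 682 snRNA features (0%) were called between FL and HGC by edgeR, with 84 at an unadjusted p under 0.05, and DESeq2 called 55. Against VGC 23 (3.37%) were called, all higher in FL. Over the 21 libraries 57 of 686 (8.31%) were called against HGC and 56 (8.16%) against VGC, 45 of them higher in each. Of these 45, 43 were U6-like in each comparison, which is 9.98% of the U6-like features tested, beside 0.784% (2 of 255) of the other snRNA features. Across the snRNAs 41 features were called higher in both comparisons and 8 lower in both, which share the FL libraries. With the 11 pools left out, 70 (10.1%) and 45 (6.52%) were called, all higher in FL. With plate as a covariate 0 U6-like features were called against HGC, and 41 higher and 4 lower against VGC. The count against VGC in the 21 libraries went from 56 to 8 without FL 3 and to 91 without FL 1. With the mouse number as a block, 7 were called against HGC and 2 against VGC in the 21 libraries.

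The U6-like features that were called carried few reads. The U6-like family took 26.0 to 55.3% of snRNA counts in the 21 libraries, and the features called higher against HGC held 0.513% of the snRNA level, beside 41.7% on U6-like features not called. Gm24259 was at 45.2, 49.0 and 70.1 TMM-scaled CPM of snRNA counts in FL and at 22.3, 26.1 and 30.5 in HGC, with no overlap (log2 fold change 1.06, SE 0.17, adjusted p = 0.00153). Gm26435 was at 90.5, 103 and 143 in FL and at 44.1, 49.2 and 62.2 in HGC, also with no overlap (1.13, adjusted p = 0.00153). Gm26454 was at 602, 1065 and 1577 in FL, 378, 453 and 640 in HGC and 310, 456 and 660 in VGC, where FL 1 fell below the highest control libraries. Its log2 fold change was 1.11 (SE 0.19, adjusted p = 0.00166) and 1.21 (SE 0.21, adjusted p = 0.00311), and in the 26 libraries 0.87 (adjusted p = 0.0812) and 1.13 (adjusted p = 0.0397). Against VGC Gm24317 was at 1.24 (adjusted p = 0.00311) and Gm26054 at 1.03 (adjusted p = 0.0082). With all 26 libraries the smallest p against VGC included Gm24592 (1.73, adjusted p = 0.0397) and Gm22583 (1.74, adjusted p = 0.0397), both highest in FL 3. Those against HGC belonged to Gm23422 (−0.96, adjusted p = 0.0764) and Gm24646 (−0.94, adjusted p = 0.0764).

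Of U6-like features called lower there were 10 against HGC and 7 against VGC. Gm24499 was at 6.83, 10.4 and 17.0 CPM of snRNA counts in FL, 11.8, 21.4 and 29.6 in HGC and 18.7, 19.2 and 21.3 in VGC, a log2 fold change of −0.91 (adjusted p = 0.0069) and −0.86 (adjusted p = 0.024). Gm22069 was at −0.96 (adjusted p = 0.00957) against HGC, and Gm24704 at −0.89 (adjusted p = 0.0248) against VGC. Gm24499 was not called per count over the 7 classes (−0.70, adjusted p = 0.0678). Outside the 11 pools no U6-like feature was called lower. Gm23422, at −1.01 (adjusted p = 0.00738) against HGC, shared too few words with U6 to count as U6-like and is not in these numbers.

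The last 60 bases of Rnu6, of 3 copies named as higher and of 3 named as lower are shown because they differ in a stretch that U6-like features called in opposite directions hold or lack, Gm23422 for its similar end. They are from GENCODE M21 transcripts on GRCm38, 5′ to 3′. Capitals mark GACACGCAAATTCGTGAA and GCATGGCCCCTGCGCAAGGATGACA, words of the Rnu6 sequence that were chosen after the values were seen and searched on the transcript's strand; in Rnu6 they overlap in GACA. Rnu6 lies at chr17:13432033-13432139 (minus), Gm26454 at chr12:49009883-49009989 (plus), Gm24259 at chr9:108738752-108738858 (minus), Gm26435 at chr9:30291868-30291974 (minus), Gm24499 at chr12:69152274-69152377 (minus), Gm23422 at chr1:70596815-70596921 (plus) and Gm22069 at chr9:45634706-45634812 (minus).
Rnu6: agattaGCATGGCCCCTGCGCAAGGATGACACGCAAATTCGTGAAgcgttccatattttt
Gm26454, higher: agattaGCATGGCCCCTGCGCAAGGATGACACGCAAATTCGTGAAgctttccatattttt
Gm24259, higher: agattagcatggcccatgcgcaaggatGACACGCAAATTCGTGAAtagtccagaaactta
Gm26435, higher: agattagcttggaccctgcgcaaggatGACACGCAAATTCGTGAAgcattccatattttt
Gm24499, lower: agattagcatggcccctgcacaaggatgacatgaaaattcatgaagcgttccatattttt
Gm23422, lower: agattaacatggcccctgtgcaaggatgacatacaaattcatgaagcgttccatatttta
Gm22069, lower: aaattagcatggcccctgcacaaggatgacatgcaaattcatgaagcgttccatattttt

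One or both of these words were in 42 of the 43 U6-like features called higher against HGC (97.7%), in 0 of the 10 called lower, in 170 of the 378 not called (45%) and in 212 of all 431 tested (49.2%). Against VGC they were in 43 of 43 (100%), 0 of 7 and 169 of 381 (44.4%). The end GTGAAGCGTTCC of Rnu6 was in 5 of the 43 called higher against HGC (11.6%), 6 of the 10 called lower (60%) and 154 of all 431 (35.7%). These are counts of letters in annotated copies that share reads, and no test was made of them.

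Among lncRNA features, which are annotated transcripts, the flight spleens of the 21 libraries had more reads than HGC on transcripts that hold a run of TG repeats. Among the 26 libraries 0 of 1608 transcripts (0%) were called between FL and HGC by edgeR, with 404 at an unadjusted p under 0.05 and 34 called by DESeq2. The smallest p belonged to Gm47283 (−1.67, adjusted p = 0.1) and 2900076A07Rik (−1.38, adjusted p = 0.1), both called in the 21 libraries (−1.74 and −1.36, adjusted p = 0.0139). Against VGC 1 (0.0622%) was called, Gm29966, through VGC 4, and its log2 fold change went from −7.48 (adjusted p = 0.0291) to −0.75 (adjusted p = 0.149) in the 21 libraries. Among the 21 libraries 287 of 1686 (17%) were called against HGC, 186 higher (11%) and 101 lower (5.99%), and 6 (0.356%) against VGC, 1 higher and 5 lower. Over the 17 libraries 295 of 1657 (17.8%) were called against HGC and 0 against VGC. With plate as a covariate 0 were called in either comparison. Leaving out VGC 11 moved the count against VGC in the 21 libraries from 6 to 245, VGC 16 to 42, HGC 3 to 25, VGC 14 to 1, and any one of FL 1, FL 3, FL 5, FL 13, FL 14, FL 16, HGC 4, VGC 1 or VGC 3 to 0, and leaving out FL 12 moved the count against HGC in the 26 libraries to 211.

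The transcripts called higher in the 21 libraries were described by their letters, chosen after the values were seen and searched on the transcript's strand. TGTGTGTGTGTGTGTGTG, 9 units of TG, was in 158 of 183 transcripts called higher against HGC that have a sequence in GENCODE M21 (86.3%), in 0 of 85 called lower, in 33 of 1307 not called (2.52%) and in 191 of all 1575 (12.1%). Its complement CACACACACACACACACA was in 3 of those called higher (1.64%), 1 of those called lower (1.18%) and 191 of all (12.1%). The 191 transcripts with the TG run had a median log2 fold change of 1.23 against HGC and 0.82 against VGC, beside −0.31 and −0.31 for those without it. In the 26 libraries the medians of the holders were 1.01 and 0.80, outside the 11 pools 1.30 and 0.90, and with plate as a covariate 1.16 and 0.73. Reads of a repeat match many of these transcripts at once, so that the 191 are not separate measurements.

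As a share of lncRNA counts in the 21 libraries, the transcripts with the TG run held 11.5, 17.6 and 39.6% in FL, 4.43, 6.58 and 10.9% in HGC and 5.00, 7.66 and 16.2% in VGC. FL did not overlap HGC, and its lower libraries overlapped VGC. FL 1 was the highest FL library (39.6%) and VGC 11 the highest control (16.2%), as they were for miR-466i-5p. Whether miR-466i-5p and these transcripts share reads was not tested. Gm34777 and Gm34376 were 2 of the 3 named as higher against HGC, and the stretch of each around its TG run (capitals) is shown, from GENCODE M21 on GRCm38. Gm34777 lies at chr10:99233117-99243062 (plus), with the stretch at bases 471 to 518 of its transcript of 2505 bases, and Gm34376 at chr10:71287729-71292483 (plus), with the stretch at bases 1061 to 1108 of 2107.
Gm34777: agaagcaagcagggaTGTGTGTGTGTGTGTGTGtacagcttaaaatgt
Gm34376: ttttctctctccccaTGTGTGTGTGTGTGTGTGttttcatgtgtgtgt

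Gm34777 was at 25.9, 42.9 and 84.4 TMM-scaled CPM of lncRNA counts in FL, at 14.5, 18.1 and 22.8 in HGC and at 16.0, 19.4 and 38.4 in VGC. FL and HGC did not overlap, and VGC 11 reached into the range of FL. The log2 fold change against HGC was 1.33 (SE 0.26, adjusted p = 0.0124), 1.04 (adjusted p = 0.1) in the 26 libraries and 1.37 (adjusted p = 0.11) with plate as a covariate. Gm34376 was at 25.8, 43.7 and 86.0 in FL and 15.7, 18.3 and 22.8 in HGC, a log2 fold change of 1.32 (adjusted p = 0.0124). Gm49240, which does not hold the TG run, was at 6.82, 11.1 and 18.9 in FL, 2.84, 4.30 and 5.94 in HGC and 2.19, 4.35 and 6.60 in VGC, with no overlap. It was the 1 transcript called higher against VGC (1.45, adjusted p = 0.0354), and was at 1.43 (adjusted p = 0.0124) against HGC.

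**Figure D5:**
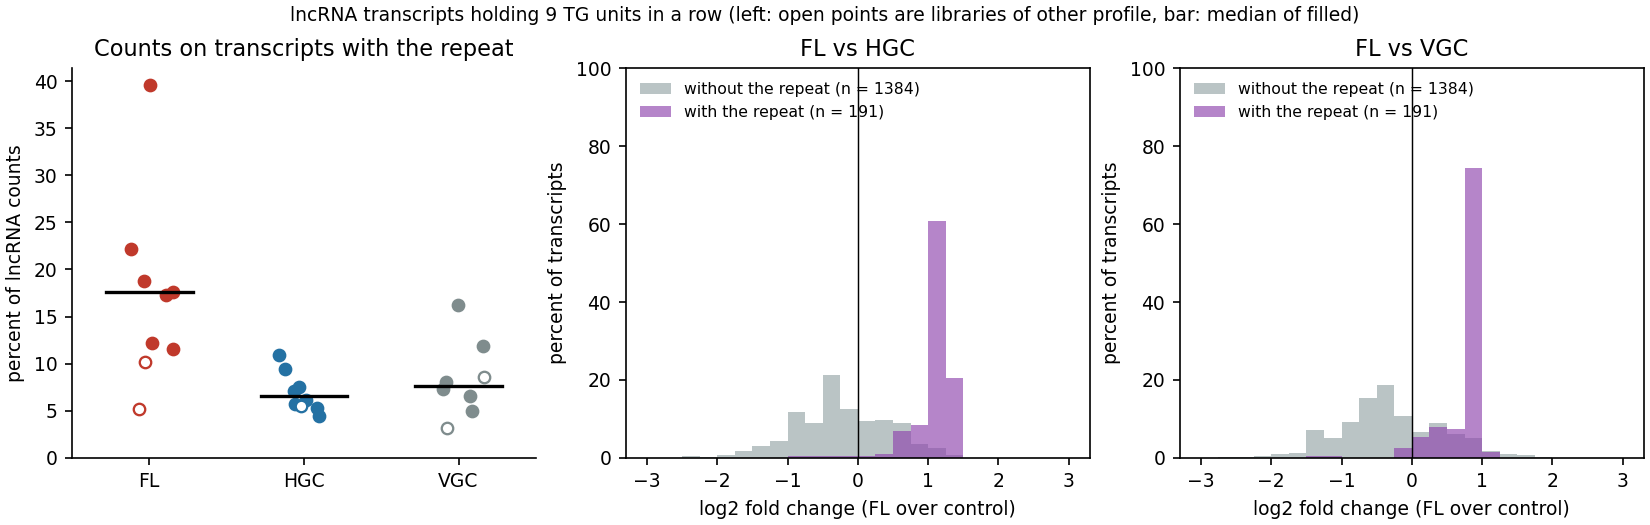
Left, percent of lncRNA counts on transcripts that hold 9 TG units in a row, by arm and library from 0, with open points for libraries of another profile and bars for the median of the filled points. Middle and right, percent of transcripts by log2 fold change of FL over HGC and of FL over VGC in the 21 libraries, for the 191 transcripts with the run and the rest of the 1575, whose medians are 1.23 and −0.31 against HGC.

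Transcripts lower in FL relative to other lncRNAs included B230208H11Rik, at 55.8, 75.8 and 115 CPM of lncRNA counts in FL and 121, 224 and 497 in HGC with no overlap (log2 fold change −1.54, SE 0.29, adjusted p = 0.0124). 4930428O21Rik was at 11.8, 19.5 and 26.5 in FL and 24.9, 49.8 and 95.3 in HGC (−1.5, adjusted p = 0.0127, and −1.5, adjusted p = 0.0354, against VGC). Gm49890 was at 70.0, 92.1 and 177 in FL and 191, 247 and 413 in VGC (−1.52, adjusted p = 0.0354), and Gm20043 at −1.53 (adjusted p = 0.0354) against VGC. These calls depended on what the counts were set against. Per count over the 7 classes the median of all lncRNA transcripts moved from −0.20 to 0.94 against HGC and from −0.27 to 0.64 against VGC, 623 transcripts were called higher and 0 lower against HGC, and B230208H11Rik was at −0.44 (adjusted p = 0.334). On that scale the transcripts with the TG run had medians of 2.46 against HGC and 1.92 against VGC, beside 0.83 and 0.59 for the others.

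Of 20 well-known lncRNA genes, 12 were tested, with 40 transcripts. Transcripts of 1 gene can share reads, so that the 40 are not separate measurements. In the 21 libraries 15 of the 40 were called lower in FL than in HGC and 1 higher, where 5.99% and 11% of all transcripts were, with a list median of −0.88 beside −0.20 over all transcripts. The lower ones included the snoRNA hosts Snhg12 (7 of 9 transcripts, median −1.25), Snhg8 (2 of 2, −1.45), Snhg1 (1 of 2) and Snhg5 (1 of 9). They also included the miRNA hosts Mir155hg (2 of 2, −1.07) and Mir17hg (−1.25), the precursors of miR-155 and of the miR-17-92 cluster, and 1 of 4 transcripts of Malat1, a nuclear RNA of splicing speckles. The 1 higher transcript was of the imprinted Meg3 (1.1, adjusted p = 0.0139), and none of Gas5 (4 transcripts, median −0.78), Neat1 (3, −0.65), Dleu2 (2, 1.08) or Xist (−0.87) was called. Against VGC 0 of the 40 were called, with a list median of −0.88 beside −0.27 over all. With plate as a covariate in the 21 libraries, 0 of all lncRNA transcripts were called in either comparison. With the 11 pools left out, 1 was called higher and 11 lower against HGC, of 39, where 12.4% and 5.37% of all transcripts were. Per count over the 7 classes the direction was lost, with 5 of the 40 called higher and 0 lower, where 623 of all 1686 were called higher, and a list median of 0.08 beside 0.94 over all transcripts.

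piRNAs guide PIWI proteins in the germ line, and features with such names in spleen may be fragments of other RNAs. With all 26 libraries 0 of 405 (0%) were called against HGC by edgeR, with 50 at an unadjusted p under 0.05 and 1 by DESeq2. Against VGC 0 (0%) were called, with 62 and 3. Over the 21 libraries 20 of 413 (4.84%; 14 higher, 6 lower) were called against HGC and 17 (4.12%; 15 higher, 2 lower) against VGC, and outside the 11 pools 49 of 408 (12%) and 26 (6.37%). With plate as a covariate 0 and 6 were called. Leaving out HGC 1 moved the counts of the 21 libraries to 64 and 49, leaving out HGC 16 moved the first to 12 and leaving out FL 1 the second to 6. oocyte_piRNA2645 was at 17.6, 56.1 and 110 TMM-scaled CPM of piRNA counts in FL, 2.84, 9.33 and 26.9 in HGC and 1.37, 9.96 and 18.5 in VGC. HGC 4 and the highest VGC library reached into the FL range. Its log2 fold change was 2.36 (SE 0.43, adjusted p = 0.000663) against HGC and 2.38 (adjusted p = 0.00276) against VGC.

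piR-12601 was at 24.4, 59.8 and 96.7 CPM in FL, 12.1, 16.4 and 22.7 in HGC and 6.86, 15.0 and 27.6 in VGC, with no overlap of FL and HGC. Its log2 fold change was 1.71 (adjusted p = 0.000663) and 1.88 (adjusted p = 0.00238), and piR-18726 was at 1.83 and 1.87. Lower in FL than in HGC were oocyte_piRNA243 (−1.1, adjusted p = 0.0118), at 86.6, 141 and 181 against 215, 270 and 575 with no overlap, oocyte_piRNA35 (−1.12, adjusted p = 0.0192, but 0.41, adjusted p = 0.695, in the 26 libraries) and piR-101620 (−1.46, adjusted p = 0.0221). The 2 lower against VGC were oocyte_piRNA1303 (−1.37, adjusted p = 0.0246) and piR-13616 (−0.95, adjusted p = 0.0423). The smallest p of the 26 libraries against HGC belonged to oocyte_piRNA2286 (3.09, adjusted p = 0.116) and oocyte_piRNA1479 (3.00, adjusted p = 0.116). In the 21 libraries these were at 0.16 and 0.61, and the second was at 0.94 in the 26 without FL 12. Against VGC the smallest p of the 26 belonged to oocyte_piRNA2645 (2.4, adjusted p = 0.0843) and oocyte_piRNA2786 (1.52, adjusted p = 0.0843), and the latter was at 1.72 (adjusted p = 0.00364) in the 21 libraries.

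The rRNA and snoRNA fragments had no call in any of the 3 sets of libraries by edgeR. Of 166 rRNA features, 0 (0%) were called in the 26 libraries, with 0 at an unadjusted p under 0.05 and 0 by DESeq2 against HGC, and 2 at an unadjusted p under 0.05 against VGC. Of 589 snoRNA features 0 (0%) were called, with 17 and 4 at an unadjusted p under 0.05 against HGC and VGC and 0 by DESeq2. Among the 21 libraries the rRNA features with the smallest p were Gm27959 (0.62, adjusted p = 0.583) and n-R5s68 (0.51, adjusted p = 0.583) against HGC, and Gm25974 (2.82, adjusted p = 0.895) and CT010467.1 (0.40, adjusted p = 0.895) against VGC. In the 26 libraries Gm25365 was at 0.45 (adjusted p = 0.5) against HGC and Gm24647 at 3.04 (adjusted p = 0.993) against VGC. Among snoRNAs Gm26277 was at 2.07 (adjusted p = 0.415) against HGC and 1.84 (adjusted p = 0.447) against VGC, Gm22879 at 0.45 (adjusted p = 0.85) against HGC, and Snord100, a guide of ribosomal RNA methylation, at −0.68 (adjusted p = 0.447) against VGC. Among the 26 libraries Gm26922 (2.19, adjusted p = 0.643) had the smallest p against HGC, and against VGC Gm22962 was at 1.61 (adjusted p = 0.99) and Snord118, which acts in ribosomal RNA processing, at −0.66 (adjusted p = 0.99).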

How the data were processed

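Small RNA libraries (MGIEasy kit, single-end reads on a BGISEQ500) of 26 spleens were analysed. The authors ran miRMaster 2 against GRCm39 and miRBase and deposited raw counts per feature for each RNA class. The miRNA values deposited by the authors are estimated counts, of which 0.777% had a fraction, and these were rounded. The counts per feature of the 6 other classes were used as deposited. The 660 columns of other samples in each of these, and the circRNA and scaRNA tables, were not used. The miRNA columns of the other tissues gave the tissue profiles.

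Each class was fitted with edgeR 4.0.16 (quasi-likelihood, robust; limma 3.58.1, R 4.3.3) on the features kept by filterByExpr, with TMM factors on the counts of the class, all 3 arms in 1 fit and no covariate. Calls needed an adjusted p (Benjamini-Hochberg) under 0.05 within a class and contrast. Levels are counts per 1000000 of the class (CPM). Shares of counts were compared by exact two-sided permutation, adjusted over 14 comparisons. Alternatives were DESeq2 1.42.0 and its size factors, the study's filter (5 counts in 10% of a group, here of any arm) or none, age or plate as a covariate, library size over 7 classes, a replicate block, the 11 pools or single libraries left out and, added after seeing the data, the 5 libraries of another profile left out. Replicates were separate mice, and same-numbered mice of different arms were treated as unpaired. The deviations of such mice from their arm means correlated at −0.48 to 0.68 in the 26 libraries, over 0.1 in 13 of 23 pairs. Their median correlation was 0.14, beside 0.02 for pairs of different number.

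In each flight contrast the text names the 8 called miRNAs with the smallest p in each direction, or the 5 with the smallest p where fewer than 5 were called. In the other classes it names 3 in each direction, or 2 where none was called, with the 10 most abundant miRNAs, the markers and up to 4 members of each list. The rule was applied to the 26 libraries and again, after values were seen, to the 21. The members and lists were chosen with earlier results of these data known. On counts simulated at the levels of the 562 miRNAs of the 21 libraries, 94 miRNAs were changed 2-fold and 93 were changed 4-fold. Of these, 66.0% and 95.7% were recovered between FL and HGC, and 56.4% and 94.6% between FL and VGC. In the 26 libraries, over 558 miRNAs, the shares were 36.6% and 84.9% against HGC and 25.8% and 83.9% against VGC. With so many miRNAs changed, the adjusted threshold is easier to pass than where few change. The shares therefore do not hold for a few changed miRNAs. Depth, 28.9 to 86.5 M counts (M, 1000000), limits features of a few counts. Intervals are not printed for counts, and reads without molecular identifiers are not independent molecules.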

Additional observations from a re-analysis of the deposited data

Results flagged for a closer look

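In 48 of 201 groups looked at, 1 library stood apart from the rest of its arm by Dixon's test at the 95% level, where chance flags about 1 in 20 groups. Many of these were the 5 libraries of another profile. The tRNA share reached 28.6% in HGC 13 and 53.9% in VGC 13. Levels in TMM-scaled CPM were extreme in VGC 4 for miR-122-5p (799000), miR-122-3p (10200), miR-192-5p (161000), miR-192-3p (2370) and Gm29966 (868000). In HGC 13 they were extreme for miR-196b-5p (14200), miR-196a-5p (6000), miR-192-5p (35400), miR-192-3p (483) and Gm29966 (1850). FL 12 stood apart with a piRNA share of 4.91%, miR-206-3p at 8540, miR-133b-3p at 13900 and Met-CAT-5-1 at 4.89, its lowest. VGC 13 stood apart with miR-206-3p at 3760, miR-133b-3p at 3070, iMet-CAT-3-1 at 8180, iMet-CAT-1-1 and iMet-CAT-1-2 at 8220 and Gln-TTG-1-1 at 89, its lowest, and FL 11 with Gln-CTG-5-1 at 135.

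The other libraries that stood apart have a spleen profile. FL 1 had a lncRNA share of 19.9%, miR-466i-5p at 841, miR-196a-5p at 217 and miR-7b-5p at 45.6, and VGC 11 had miR-466i-5p at 204, Gm34777 at 38.4 and Gm34376 at 40.4. HGC 1 had an rRNA share of 27.1% and a piRNA share of 4.07%, and HGC 4 had miR-206-3p at 63.2, miR-205-5p at 112 and oocyte_piRNA2645 at 26.9. FL 13 had miR-122-3p at 31.4 and miR-205-5p at 2680, and FL 3 had miR-192-3p at 13.7, miR-3470b at 26.3, Gm24592 at 267 and Gm22583 at 297. HGC 5 had oocyte_piRNA243 at 575, B230208H11Rik at 497 and Gm20043 at 15.1, HGC 11 had the lowest Thr-TGT-2-1 at 86.5, VGC 1 had oocyte_piRNA1303 at 1020 and FL 2 had Gm49890 at 177.

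The FL to HGC change differed between TERM and returned spleens for 6 miRNAs in an interaction test by edgeR, with log2 differences of 6.72 for miR-193b-3p, 4.93 for miR-3076-5p, 2.55 for miR-466i-5p, 5.62 for miR-1941-5p, 2.33 for miR-486a-3p and 5.35 for miR-126b-3p. Without the libraries of another profile miR-466i-5p was the 1 still called, and miR-193b-3p, miR-1941-5p and miR-486a-3p were at −1.12, 0.25 and 1.01. Without the 11 pools 8 were called, with miR-466i-5p at 2.95 and miR-486a-3p at 1.61 (edgeR adjusted p = 0.0197) among them and miR-193b-3p and miR-1941-5p, at −1.32 and 0.58, not.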

How the results depend on the processing

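Numbers are features called, in FL vs HGC and then FL vs VGC. Beside the 26 libraries (miRNA 0 and 0, tRNA 38 and 12, snRNA 0 and 23, piRNA 0 and 0, lncRNA 0 and 1), those of another profile left out gave miRNA 2 and 2, tRNA 47 against VGC, snRNA 57 and 56, piRNA 20 and 17 and lncRNA 287 and 6. Without the 11 pools there were miRNA 1 against HGC, tRNA 92 against VGC, snRNA 70 and 45, piRNA 49 and 26 and lncRNA 295 and 0. DESeq2 gave miRNA 4 and 4, tRNA 19 against VGC, snRNA 55 and 52, piRNA 1 and 3 and lncRNA 34 and 0, and its size factors in edgeR gave snRNA 38 and 42. Counts over the 7 classes gave tRNA 18 and 0 and lncRNA 331 and 327. Plate gave tRNA 0 and 0, snRNA 42 and lncRNA 0 against VGC, and age gave snRNA 0 and lncRNA 0 against VGC. The study's filter gave piRNA 1 and 1 and lncRNA 0 against VGC, and no filter piRNA 10 against HGC and lncRNA 0 against VGC. The replicate block gave tRNA 23 and 1, and snRNA 0 and lncRNA 0 against VGC. The cause was not tested in any of these.

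Beside the 21 libraries (miRNA 2 and 2, tRNA 51 and 47, snRNA 57 and 56, piRNA 20 and 17, lncRNA 287 and 6), plate gave miRNA 0 and 0, tRNA 2 and 29, snRNA 0 against HGC, piRNA 0 and 6 and lncRNA 0 and 0. No filter gave miRNA 1 and 1, piRNA 12 and 3 and lncRNA 40 against VGC. Counts over the 7 classes gave miRNA 1 and 0, tRNA 30 against VGC and lncRNA 623 and 490. The replicate block gave miRNA 1 and 1, tRNA 29 against VGC, snRNA 7 and 2, piRNA 8 and 7 and lncRNA 206 against VGC. DESeq2 gave tRNA 76, piRNA 48 and lncRNA 87 against VGC, its size factors tRNA 72 and age snRNA 36 against VGC.

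Leaving out 1 library at a time, the 26 gave miRNA 0 to 1 and 0 to 0 (HGC vs VGC 0 to 6), tRNA 13 to 46 and 7 to 104, snRNA 0 to 45 and 0 to 44, piRNA 0 to 10 and 0 to 26 and lncRNA 0 to 211 and 0 to 258. The 21 gave miRNA 1 (7 libraries) to 5 (without HGC 1) and 0 (VGC 3, 14 or 16) to 2, tRNA 36 to 65 and 36 (without VGC 2) to 85 (without FL 16), snRNA 44 to 79 and 8 (without FL 3) to 91 (without FL 1), piRNA 12 (without HGC 16) to 64 (without HGC 1) and 6 (without FL 1) to 49 (without HGC 1), snoRNA 0 to 1 against VGC and lncRNA 236 to 378 and 0 to 245.

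The flight by extraction count of 6 went to 0 with no filter, 1 without libraries of another profile, 8 without the 11 pools and 7 with DESeq2 or its size factors. By the rule of the study 5 and 4 miRNAs went to 8 and 12 at a pseudocount of 0.1, 0 and 1 at 10, 10 and 21 per miRNA counts in place of all counts, and 13 against VGC without the 5 libraries. Of the features named, oocyte_piRNA35 was called at −1.12 in the 21 libraries and was at 0.41 in the 26, and Gm29966, called in the 26, was at 0.35 per count over the 7 classes in the 21. Some named lncRNA genes with a transcript called lower against HGC in the 21 libraries also turned sign per count over the 7 classes. Their medians went from −1.07 to 0.08 for Mir155hg, from −0.57 to 0.40 for Malat1 and from −0.81 to 0.25 for Snhg5. The changes of sign listed next were in features not called. Without the 11 pools miR-196b-5p was at 0.47, miR-196a-5p at 0.68, miR-122-5p at 1.01, miR-122-3p at 1.51, miR-192-5p at 0.11, Gm22962 at −0.22 and oocyte_piRNA2286 at −0.03. With DESeq2 miR-122-5p was at 1.14, miR-192-3p at 0.16, miR-122-3p at 1.35, miR-192-5p at 0.26 and miR-205-5p (21 libraries) at −0.20. In the replicate block miR-122-5p was at 1.12 and miR-122-3p at 1.74. Without VGC 4 miR-122-5p, miR-192-3p, miR-122-3p and miR-192-5p were at 1.65, 0.13, 2.04 and 0.25, beside −8.84, −5.56, −7.91 and −5.32 at the other end of that range, and without all 5 at 1.99, 0.20, 2.71 and 0.35. miR-205-5p ran from −0.20 (without FL 13) to 3.99.

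Handling site, flight and, for VGC, housing and food cannot be told apart. Plates hold too few libraries of each arm for values within a plate. Near-identical copies share reads, and the counting rule for them is not given in the sources used here.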
